A study of Mus musculus with 8 samples.

Results

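The 6 red blood cell genes described here, Hba-a1, Hba-a2, Hbb-bs, Hbb-bt, Alas2 and Slc4a1, were picked by symbol from the 18770 genes listed in the mouse skin table, as a gauge of how much blood each library held. Messenger RNA had been measured in dermis with hair follicles of the dorsal skin, after the interfollicular epidermis was taken off. The study asked how Alpinetin (AP), a plant flavonoid, acts on hair regrowth. All mice were wildtype C57BL/6 males (C57BL/6J in the study's methods) of 7 to 8 weeks, and both groups were depilated and sampled at day 4 (D4). The AP group had 20 µl of AP at 3 mg/ml in 65% ethanol on the skin once a day from 24 h after depilation, and the vehicle control (VC) group had 20 µl of 65% ethanol alone. Each group held 4 libraries (VC.1, VC.2, VC.3, VC.4 and AP.1, AP.2, AP.3, AP.4), and where 4 values of a group are given they follow this order. The RNA came from 4 mice a group, and the numbers of VC.1, VC.2 and VC.3 recur in sample titles while those of VC.4 and of the AP columns do not, so libraries were tied to their group and not to a mouse.

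Mature mouse red cells carry little but haemoglobin, a tetramer of α and β chains, and keep globin mRNA for a time after they lose the nucleus, so globin reads in a solid tissue come mainly with its blood. Hba-a1 and Hba-a2 are the adult α genes and Hbb-bs and Hbb-bt the adult β genes of the haplotype found in C57BL/6. Alas2 is the erythroid form of the first enzyme of heme synthesis, and Slc4a1 (band 3) is the anion exchanger of the red cell membrane.

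The libraries differed in depth and in make-up before any red cell gene was read. VC libraries held 6454563 to 7264151 reads on listed genes and AP libraries 8507783 to 11190113. Mitochondrially encoded genes took 48.4% ± 5.81 (SD, n = 4) of VC reads and 8.66% ± 2.63 of AP reads, and the groups did not overlap (lowest VC library 42.1%, highest AP library 11.1%). Levels are given as normalized counts, that is, reads divided by the size factor of the library. A single read was worth between 1.37 and 1.88 normalized counts in VC and between 0.498 and 0.725 in AP, so low genes were read more coarsely in VC.

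Of the 6 genes, 5 passed the filter of at least 3 normalized counts in at least 4 libraries, and Slc4a1 did not. In limma's fit over 15964 genes, 1 of the 5 was called higher in AP at an adjusted p under 0.05 and 0 were called lower, where the fit called 6.33% of all tested genes higher and 4% lower. The groups did not overlap for 1 of the 5, with AP above VC, against 10.3% of all tested genes, and for 0 with AP below VC, against 8.91%. With so few genes, neither count stands apart from these shares. The median log2 fold change of the 5 was 0.94, where that of all tested genes was 0.06, but it depended on single libraries and on the setting. It was 0.29 without VC.1 and 0.53 without AP.2, 0.45 with voom and 0.49 with a pseudocount of 5, and 1.59 with scaling by total counts, which moved the median of all genes to 0.90. Fold changes were computed as AP minus VC on log2(normalized count + 1), so the values of low genes depend on the pseudocount, in either direction. Alas2 stood at 0.95 with it, at 1.18 with a pseudocount of 0.5 and at 0.49 with 5. It stood at 0.64 in edgeR and 0.66 in DESeq2. In bulk RNA, fewer cells of a type and less RNA per cell cannot be told apart.

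Hba-a1 (ENSMUSG00000069919, chr11:32283511-32284465, plus strand, mm10) is the first of the adult α genes along the chromosome. It stood at 358, 223, 421 and 253 normalized counts in VC and at 455, 566, 235 and 251 in AP. AP.1 and AP.2 were high, AP.3 and AP.4 lay among the lower VC libraries, and the groups overlapped. The log2 fold change was 0.21 (95% interval −0.46 to 0.88, SE 0.31), with an adjusted p of 0.677 in limma. Without AP.2 it was −0.02. Scaling by total counts, which moved the median of all genes to 0.90, gave 1.08 (adjusted p 0.0182 in limma), and Hba-a1 then passed.

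Hba-a2 (ENSMUSG00000069917, chr11:32296489-32297298, plus strand) lies downstream of Hba-a1. VC libraries held 173, 84.2, 129.7 and 105 normalized counts, and AP libraries held 87.0, 81.4, 52.8 and 54.4. Of the AP libraries, AP.1 alone lay above the lowest VC library, VC.2. The log2 fold change was −0.81 (95% interval −1.45 to −0.17, SE 0.29) and the adjusted p in limma was 0.0901, so the difference did not pass. DESeq2 on the recovered reads gave −0.83 with an adjusted p of 0.0396, and adjusted p ranged from 0.0396 to 0.898 over all settings run. Scaling by total counts gave 0.05, a setting that moved the median of all genes to 0.90, so that Hba-a2 lay far below that median there as well.

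Hbb-bs (ENSMUSG00000052305, chr7:103826534-103828096, minus strand) was the red cell gene that passed the test. Its normalized counts were 186, 168, 330.4 and 169 in VC and 492, 775, 355 and 406 in AP. Every AP library lay above every VC library, although AP.3 stood close to VC.3. Means were 213 ± 78.5 in VC and 507 ± 187 in AP (SD, n = 4 each), a 2.38-fold difference. On the log2 scale the difference was 1.24 (95% interval 0.63 to 1.85, SE 0.28), with an adjusted p of 0.0231 in limma. It stayed above 0 in all settings run, but the limma adjusted p was 0.0545 without VC.1, 0.0608 without AP.2, 0.0520 without AP.4 and 0.0657 with all libraries and no intensity trend, within a range of 0.000962 to 0.0657 over all settings.

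Hbb-bt (ENSMUSG00000073940, chr7:103812524-103813996, minus strand) is the lesser β gene. VC libraries had 63.7, 16.3, 17.8 and 11.3 normalized counts and AP libraries had 31.9, 97.1, 27.9 and 35.8. VC.1 was high among the VC libraries and AP.2 among the AP libraries, and the groups overlapped. With all libraries the log2 fold change was 0.94 (95% interval −0.31 to 2.18, SE 0.57), with an adjusted p of 0.290 in limma. It was 0.54 without AP.2 (adjusted p 0.598) and 1.44 without VC.1 (adjusted p 0.0903), so each of these libraries moved it. Scaling by total counts, with its median of 0.90 for all genes, gave 1.77 (adjusted p 0.0178 in limma), and Hbb-bt then passed. Only 6 to 35 reads a library stood behind the VC values, against 44 to 180 in AP.

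Alas2 (ENSMUSG00000025270, chrX:150547375-150570638, plus strand) was near the limit of detection. It had 0, 10, 5 and 8 reads in VC and 15, 56, 23 and 7 in AP, which came to 0, 14.8, 6.83 and 15.0 normalized counts in VC and 10.9, 30.2, 11.5 and 5.01 in AP. The 0 reads in VC.1 allow up to 5.46 normalized counts (3 reads, counting error only). AP.2 was again the highest library and the groups overlapped. The log2 fold change of 0.95 (SE 0.90, adjusted p in limma 0.504) fell to 0.04 without VC.1.

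Slc4a1 (ENSMUSG00000006574, chr11:102348824-102366203, minus strand) had 0 reads in all 4 VC libraries and 1, 1, 5 and 2 reads in AP. The 0 VC reads allow up to 1.20 normalized counts over the group, and the 9 AP reads correspond to 1.36. No interval was computed for the AP value, so these values cannot set the groups apart. With at most 5 reads in a library, the gene did not enter limma's fit over 15964 genes. Of these genes, then, Hba-a1, Hba-a2 and Hbb-bs had at least 56 reads in every library, Hbb-bt and Alas2 were low in VC and Slc4a1 was near the floor, so the gauge rested on globin mRNA.

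**Figure D1:**
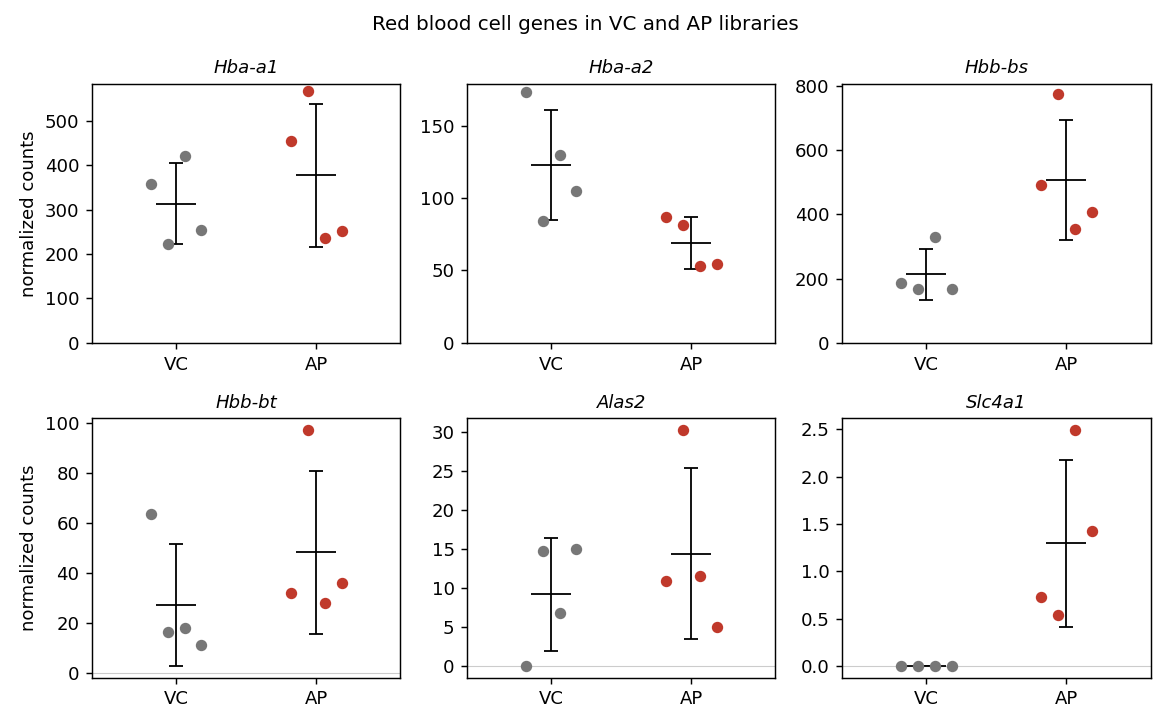
Normalized counts (linear axis, each panel with its own range) of the 6 red blood cell genes in VC (grey) and AP (red). Points are libraries, long dashes are group means and bars are SD (n = 4). Hbb-bs is separated between the groups (168 to 330.4 in VC, 355 to 775 in AP), while Hba-a1, Hba-a2, Hbb-bt and Alas2 overlap and Slc4a1 has 0 reads in VC.

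To compare the genes with each other, levels were divided by the length of the longest annotated transcript. Sequence shared within the α pair or the β pair was not allowed for. The order of the genes is therefore uncertain where reads from shared sequence were left uncounted. In VC, Hba-a1 stood first at 449 ± 131 normalized counts per kb, followed by Hbb-bs at 339.7 ± 125, Hba-a2 at 222 ± 68.8 and Hbb-bt at 38.7 ± 34.8 (SD, n = 4). In AP, the order per kb was Hbb-bs at 807 ± 298, Hba-a1 at 539 ± 231, Hba-a2 at 124 ± 32.2 and Hbb-bt at 68.5 ± 46.6. The SDs of neighbours in these orders overlapped, except for Hba-a2 and Hbb-bt in VC and for Hba-a1 and Hba-a2 in AP. Within libraries, Hba-a1 exceeded Hbb-bs per kb in 4 of 4 VC libraries and in 0 of 4 AP libraries, Hbb-bs exceeded Hba-a2 in 3 of 4 VC libraries, and Hba-a2 exceeded Hbb-bt in 4 of 4 libraries of each group. Alas2 came far lower, at 4.49 ± 3.53 per kb in VC and 7.06 ± 5.37 in AP, and Slc4a1 last, at 0 and 0.285 ± 0.195.

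The sum of the 4 adult globins, the simplest gauge of blood content, was 780.4, 492, 898 and 538 normalized counts in VC and 1066, 1519, 671 and 747 in AP. AP.1 and AP.2 lay above all VC libraries, whereas AP.3 and AP.4 lay below VC.1 and VC.3. Group means were 677 ± 194 and 1001 ± 386 (SD, n = 4). Log2 differences of sums, shares and ratios, here and below, are between group means of log2 values. For the globin sum it was 0.53, smaller than either group's range on that scale, and was not tested, since it is a score over chosen genes. The α genes summed to 437 ± 122 in VC and 446 ± 178 in AP, while the β genes summed to 241 ± 78.4 and 555 ± 219.

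As a share of reads, globins were scarce in every library. They took 0.00591%, 0.00487%, 0.0102% and 0.00445% of all reads in VC and 0.0173%, 0.0260%, 0.0120% and 0.0118% in AP, with every AP library above every VC library and a log2 difference of 1.40. With the mitochondrially encoded reads left out of the total, the shares were 0.0129%, 0.00885%, 0.0175% and 0.00932% in VC and 0.0194%, 0.0282%, 0.0127% and 0.0131% in AP, and the groups overlapped again (log2 difference 0.57). The separation in all reads was thus present with mitochondrially encoded reads in the total and absent without them.

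Chain ratios within a library do not depend on its scaling. The α to β ratio, (Hba-a1 + Hba-a2) over (Hbb-bs + Hbb-bt), was 2.13, 1.66, 1.58 and 1.99 in VC and 1.04, 0.743, 0.752 and 0.691 in AP. All 4 AP libraries lay below all 4 VC libraries, with AP.1 nearest to them. Means were 1.84 ± 0.262 in VC and 0.805 ± 0.156 in AP (SD, n = 4), a log2 difference of −1.20, or 2.30-fold lower in AP. A two-sided exact permutation test, with 70 ways to assign the libraries, gave p = 0.0286, the smallest it can give, and 0.0714 after Benjamini-Hochberg adjustment over 5 ratios. With only 2 of the 5 ratios at that smallest p, the adjusted value could not be lower. That limit came from the outcome of the other tested ratios and from the Slc4a1 ratio, which had no test and was counted as not passing. With it the adjusted test could not pass. Per kb of transcript the ratio was 2.14, 1.62, 1.52 and 1.94 in VC and 0.976, 0.698, 0.713 and 0.655 in AP. Counted α reads thus exceeded counted β reads per length in all VC libraries and in no AP library. Whether this holds for the mRNA depends on how reads from shared sequence were counted.

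Read counts give the precision of each library. Of all globin reads, α reads made up 68.1% (292 of 429), 62.5% (208 of 333), 61.2% (403 of 658) and 66.6% (191 of 287) in VC. The AP shares were 50.9% (748 of 1470), 42.6% (1201 of 2818), 42.9% (578 of 1347) and 40.9% (427 of 1045). The lowest 95% Wilson bound among VC libraries was 57.1% (VC.2) and the highest among AP libraries 53.4% (AP.1). These intervals cover counting error within a library, taking reads as independent, and leave out the spread between libraries, on which the permutation test above rests. The mitochondrially encoded share moved with the α to β ratio between the groups, and its part was not tested.

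Within the α pair, the Hba-a1 to Hba-a2 ratio was 2.07, 2.65, 3.24 and 2.41 in VC and 5.23, 6.95, 4.45 and 4.62 in AP. Every AP library lay above every VC library. The mean was 2.59 ± 0.492 in VC and 5.31 ± 1.14 in AP (SD, n = 4), a log2 difference of 1.03 or 2.04-fold. The exact permutation p was 0.0286, and 0.0714 after adjustment over 5 ratios, again the lowest value given the other ratios, the untested one included. Hba-a2 made up 32.5%, 27.4%, 23.6% and 29.3% of α reads in VC and 16.04%, 12.6%, 18.3% and 17.8% in AP. Here the Wilson intervals of the nearest libraries met, at 19.7% for the lower bound of VC.3 and 21.7% for the upper bound of AP.3.

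Within the β pair, Hbb-bs exceeded Hbb-bt in all libraries, by 2.91, 10.4, 18.6 and 15.0 times in VC and 15.4, 7.98, 12.7 and 11.4 times in AP. VC.1 was low and the groups overlapped, with a log2 difference of 0.27 (exact permutation p = 0.80, adjusted p = 1.0, n = 4 each) that was −0.30 without VC.1. Hbb-bt took 25.5% of β reads in VC.1 (35 of 137, 95% Wilson interval 18.98% to 33.4%) and between 5.10% and 11.1% in the other libraries. Unlike the α pair, the β pair thus gave no separation of the groups, although the difference between the pairs was not tested.

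Alas2 reads were 0 to 0.0300 of globin reads in VC and 0.00670 to 0.0199 in AP, and the groups overlapped. With 1 normalized count added to both terms, the log2 difference of this ratio was 0.42 (exact permutation p = 0.857, adjusted p = 1.0, n = 4 each), and −0.57 without VC.1. For Slc4a1 the ratio was 0 in VC and 0.000355 to 0.00371 in AP, resting on the same 9 reads.

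**Figure D2:**
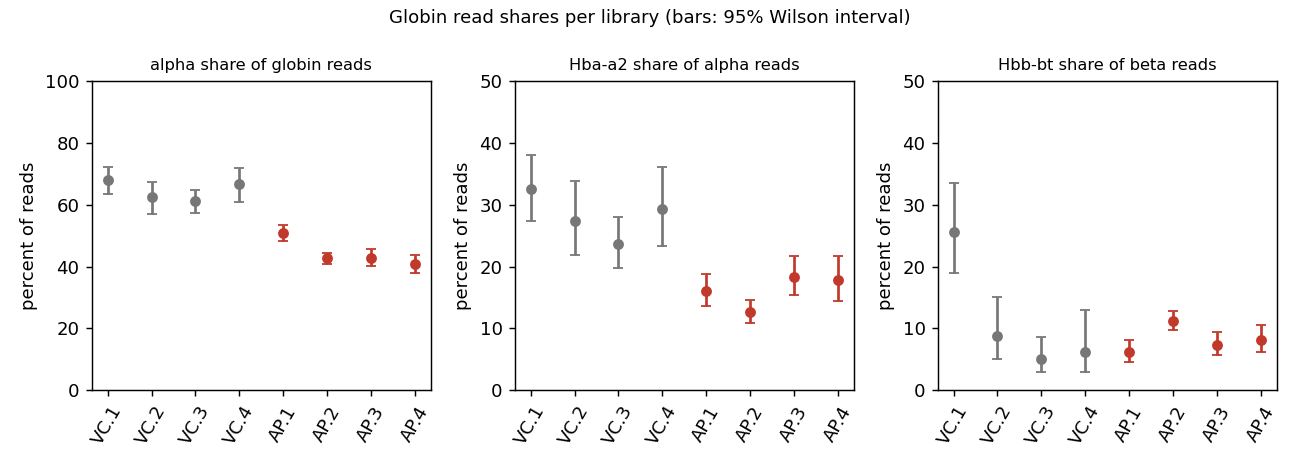
Percent of reads per library (VC grey, AP red) that are α among all adult globin reads, Hba-a2 among α reads, and Hbb-bt among β reads. Bars are 95% Wilson intervals. The α share is 61.2% to 68.1% in VC and 40.9% to 50.9% in AP, the Hba-a2 share 23.6% to 32.5% and 12.6% to 18.3%, and the Hbb-bt share overlaps.

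The split of reads within each pair is uncertain because the copies are nearly identical. The coding sequences of Hba-a1 and Hba-a2 (429 bases each) differ at 1 position, C381T, and those of Hbb-bs and Hbb-bt (444 bases each) at 1 position, C417T, counted from the first base of the start codon with the base of the first-named gene first. Both pairs translate to identical proteins. These 51-base coding windows, all in exon 3 and read on the strand of the gene, show the only coding base that tells the copies apart, in capitals. They lie at chr11:32284318-32284368, chr11:32297135-32297185, chr7:103826667-103826717 and chr7:103812658-103812708 of mm10.
Hba-a1: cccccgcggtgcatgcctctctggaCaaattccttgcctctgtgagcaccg
Hba-a2: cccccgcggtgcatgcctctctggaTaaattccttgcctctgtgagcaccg
Hbb-bs: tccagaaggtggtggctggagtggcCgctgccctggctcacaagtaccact
Hbb-bt: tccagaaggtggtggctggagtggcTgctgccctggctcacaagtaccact

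Of the 505 stretches of 50 bases in the Hba-a2 transcript, 439 also occur in Hba-a1, and of the 650 in Hba-a1 the same 439 occur in Hba-a2. For Hbb-bs 381 of 579 and for Hbb-bt 381 of 654 such stretches are shared. Longer stretches are shared less. At 100 and 150 bases, 74.5% and 65.7% of those in Hba-a2 occur in Hba-a1, against 86.9% at 50, and 56.5% and 48.4% of those in Hba-a1 occur in Hba-a2, against 67.5%. For Hbb-bs the shares at 50, 100 and 150 bases are 65.8%, 62.6% and 58.7%, and for Hbb-bt 58.3%, 54.8% and 50.7%. The read length is not given in the sources used here. No α stretch was shared with a β gene. A read inside a shared stretch cannot be assigned to a copy, and how such reads were counted is not given in the sources used here. The Hba-a1 to Hba-a2 and Hbb-bs to Hbb-bt ratios, and the levels of the single copies, therefore carry this uncertainty, and the α to β ratio carries it where reads matching both copies were left uncounted.

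RefSeq promoter sequences (GRCm38.p6, from 250 bases before to 50 after the gene start) matched 5 of the 6 genes, and Slc4a1 had no entry. Motif letters were searched on both strands of the 250 bases upstream. A GATA core (AGATAA or TGATAA), the core bound by GATA1, occurred in Hba-a1, Hba-a2, Hbb-bs and Alas2, and 16.6% of 32851 promoters held it. CACCC, the core of the site of KLF1, occurred in all 5 (52.0% of promoters), CCAAT in the 4 globins (33.8%), and ATAAA, which can overlap a GATA core by its letters, in Hbb-bt and Alas2 (37.3%). Hba-a1 and Hba-a2 shared a run of 247 of the 250 upstream bases. A stretch found in both α promoters, shown at Hba-a2 (chr11:32296369-32296488, plus strand), is set beside one of Hbb-bs (chr7:103827929-103828011, minus strand) to compare the α and β promoters, with matches in capitals. The Hbb-bs stretch lies upstream of the RefSeq gene start and in no annotated exon, but inside the GENCODE extent of the gene given above, which begins farther upstream.
Hba-a2 promoter: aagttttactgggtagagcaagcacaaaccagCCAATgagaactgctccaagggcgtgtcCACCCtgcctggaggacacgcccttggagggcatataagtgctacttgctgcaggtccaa
Hbb-bs promoter: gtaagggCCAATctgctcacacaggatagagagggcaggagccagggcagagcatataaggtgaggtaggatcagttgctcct
These matches are letters in a window and say nothing of binding in this skin.

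Embryonic and minor globin genes (such as Hba-x, Hbb-y and Hbb-bh1) were not analysed here. Of the 12 other genes of heme synthesis and its transport, all tested, 1 was called higher and 0 lower (6.33% and 4% of all tested genes). This was Cpox, the coproporphyrinogen oxidase of mitochondria, at 191, 171, 129.7 and 109 normalized counts in VC and 213, 328, 318 and 375 in AP (log2 fold change 1.04, adjusted p 0.0245 in limma). Cpox was above VC in 4 of 4 AP libraries, the 1 gene of the 12 so separated, against 10.3% of all tested genes. The groups were separated with AP below VC for 2 (Urod and Fech, named after their values were seen), against 8.91%. Of the 12 genes, 9 had a log2 fold change below 0 and the median of the list was −0.25, against 0.06 for all tested genes. The Cpox call was lost without AP.2, without AP.3 and without AP.4, and also with no intensity trend. Other settings added calls in the lower direction, with Alad and Ppox lower in limma without VC.4 and Fech lower with the transcript length trend removed, all 3 named after their values were seen. Scaling by total counts, with its shift of all genes to a median of 0.90, called more genes higher and 0 lower in this and every other list described below, and the ranges of list medians given below leave that setting out.

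Of 13 genes that handle heme and iron after red cells break down, all tested, 0 were called higher and 2 lower (4% of all tested genes were lower), with a list median of −0.46. Blvra, a biliverdin reductase, had 289, 208, 216 and 238 normalized counts in VC and 171, 125, 124 and 144 in AP (log2 fold change −0.75, adjusted p 0.0343 in limma). Ftl1, the ferritin light chain, had means of 25993 ± 10529 in VC and 10441 ± 2586 in AP (SD, n = 4), with a log2 fold change of −1.26 and an adjusted p of 0.0404 in limma. AP lay below VC without overlap for 3 of the 13 (Blvra, Ftl1 and Fth1), against 8.91% of all tested genes. It lay above VC without overlap for 1 (Flvcr1), against 10.3%. With any 1 of VC.1, VC.4, AP.2, AP.3 or AP.4 left out, limma called neither Blvra nor Ftl1. The same held with no intensity trend and with the trend on transcript length removed. With no filter, Blvra alone was called. DESeq2 called 1 higher (Flvcr1) and 3 lower, voom called 3 lower, with Fth1 the added gene in both, and limma without VC.2 called Flvcr1 higher beside the 2 lower genes. Flvcr1 and Fth1 are named after their values were seen. The list median ranged from −0.70 (without AP.2) to −0.21 (without VC.4).

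Genes of the red cell membrane and skeleton gave no call in limma with all libraries. Of 13 read here, 9 were tested, with a median of −0.04 and 5 at an unadjusted p under 0.05. No share of all tested genes was computed for that unadjusted threshold. The counts at it, here and in the lists below, therefore cannot be set against a background. edgeR called 0, DESeq2 called 1 higher (Epb41) and voom called 2 lower (Ank1 and Tmod1, the first of them named here after its values were seen). limma also called Ank1 and Tmod1 lower without AP.1. The median ranged from −0.24 (without AP.1) to 0.21 (without AP.4). AP lay above VC without overlap for 1 of the 9 (Epb41), against 10.3% of all tested genes, and below VC for 0, against 8.91%. The most abundant were Epb41, which links spectrin to the membrane in many cell types (log2 fold change 0.43, adjusted p 0.0758), Tmod1, which caps actin (−0.88, adjusted p 0.107), and Sptb, β-spectrin (−0.27, adjusted p 0.719), all from limma.

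Of 8 erythroid transcription factors, 4 were tested and limma, edgeR, DESeq2 and voom called 0, with 1 at an unadjusted p under 0.05 in limma and a median of 0.46 that was 0.07 without VC.1 and 0.65 without VC.4. Ldb1 (log2 fold change −0.25), Lmo2 (−0.35) and Zfpm1 (1.16) were the most abundant, and all 3 are also expressed outside red cells. Zfpm1 had 18.2 normalized counts in VC.1, against 170, 127 and 128 in the other VC libraries and 159, 209, 186 and 213 in AP, so VC.1 weighs on its fold change. Tal1, named after its values were seen, had the largest change of the 4 (log2 fold change 2.52, adjusted p 0.0791 in limma, at 0, 5.91, 4.10 and 31.9 normalized counts in VC and 24.7, 48.5, 27.9 and 32.9 in AP), and limma called it higher without VC.4. Gata1, the factor that defines the lineage, had means of 2.56 ± 3.54 normalized counts in VC and 0.394 ± 0.513 in AP, and Klf1 of 3.79 ± 6.40 and 4.06 ± 4.13 (SD, n = 4). Neither they nor Nfe2 and Gfi1b passed the filter.

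Of 14 late erythroid transcripts read here, 13 were tested, and limma called 0, with a median of −0.24. At an unadjusted p under 0.05 there were 4, again with no share of all genes beside them. edgeR and voom called 0, and DESeq2 called 2 lower (Bpgm and Prdx2, the former named after its values were seen). The median ranged from −0.56 (without VC.3) to −0.16 (without AP.4). AP lay below VC without overlap for 2 of the 13 (Bpgm and Prdx2), against 8.91% of all tested genes, and above VC for 0, against 10.3%. Prdx2, a peroxiredoxin of many tissues, was the most abundant (log2 fold change −0.49, adjusted p 0.0716 in limma), followed by Bnip3l (0.02) and Mkrn1 (−0.24). Ahsp and Car1, which are closer to red cells alone, were not analysed here.

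Other cells that travel in blood were then read beside the globins. Of 7 platelet genes read here, 3 were tested, and limma, edgeR, DESeq2 and voom called 0, with 0 at an unadjusted p under 0.05 in limma. AP lay below VC without overlap for 1 of the 3 (Itga2b), against 8.91% of all tested genes, and above VC for 0, against 10.3%. Pf4, the most abundant and also made by macrophages, was at 555, 174, 216 and 446 normalized counts in VC and 488, 307, 241 and 244 in AP (log2 fold change −0.02), and Itga2b was at −0.62. The platelet list summed to 629, 245, 300.4 and 557 in VC and 549.8, 371, 298 and 281 in AP, and Gp9, Gp1bb, Gp6, Tubb1 and Treml1 were not analysed here.

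Of 9 neutrophil genes read here, 6 were tested, and limma called 1 higher (6.33% of all tested genes were) and 0 lower, with a median of 0.96. This was S100a9, which keratinocytes also express, at 3.64, 25.1, 5.46 and 7.50 normalized counts in VC and 13.1, 112, 89.2 and 257 in AP (log2 fold change 3.11, adjusted p 0.0365). The groups overlapped, since AP.1 lay below VC.2, and the call was lost without any 1 of VC.1, VC.3, VC.4, AP.2, AP.3 or AP.4, with voom and with no intensity trend. edgeR called S100a9, and DESeq2, as well as limma without AP.1, called S100a8 and S100a9 higher. The list median ranged from 0.38 (no filter) to 1.75 (without VC.2). S100a8 was the most abundant of the list, Retnlg, Ngp and Elane did not pass the filter, and Ltf, Mpo and Ly6g were not analysed here. Csf3r, named after its values were seen, went the other way (log2 fold change −0.77, adjusted p 0.276 in limma). At the pseudocount of 1, limma with all libraries had 5 of the 6 tested genes above 0 and 1 below. With a pseudocount of 5 in limma, and in edgeR and DESeq2, 3 lay above 0 and 3 below. List sums were 138, 126, 95.6 and 143 in VC and 80.5, 337, 268 and 608 in AP.

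Of 10 lymphocyte and monocyte genes read here, 9 were tested. limma called 0, with 4 at an unadjusted p under 0.05 (again with no share of all genes beside it) and a median of 0.07. edgeR and voom called 0 and DESeq2 called 1 lower (Ly6c2, log2 fold change −1.62 in limma). Cd3e (1.18), Cd3d (1.91) and Nkg7 (1.85) were the others at an unadjusted p under 0.05 in limma, none called in that fit. Cd3d had 0 reads in VC.1 and Nkg7 had 0 in VC.4. These genes are named after their values were seen. The groups did not overlap, with AP above VC, for 2 of the 9 (Cd3d and Nkg7), against 10.3% of all tested genes. With AP below VC it was 0, against 8.91%. The median ranged from −0.22 (without VC.3) to 0.25 (without VC.4). The most abundant were Plac8 (log2 fold change −0.63), Ptprc (−0.20) and Ccr2 (0.07), none of them called. The list summed to 679, 637, 437 and 1213 in VC and 850.03, 494, 519 and 604 in AP, with overlap.

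Genes of the vessel lining were read as well. Of 12 endothelial genes, all tested, 4 were called higher, against 6.33% of all tested genes, and 0 lower, 11 had a log2 fold change above 0, and the groups did not overlap, with AP above VC, for 6, against 10.3% of all tested genes. The median was 1.41, against 0.06 for all tested genes. Plvap, a protein of endothelial fenestrae and the most abundant of the list, had 407, 245, 628 and 699 normalized counts in VC and 1368, 2967, 1266 and 1243 in AP (log2 fold change 1.79, adjusted p 0.0156 in limma). Flt1, a VEGF receptor, had a log2 fold change of 1.86 (adjusted p 0.0212), Pecam1, a junction protein, 1.44 (adjusted p 0.0198), and Cdh5, the cadherin of endothelium, 1.75 (adjusted p 0.0386), all in limma.

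The endothelial list summed to 2136, 2131, 3673 and 3744 normalized counts in VC and 5941, 12815, 4942 and 5497 in AP. AP.2, the highest library for each globin except Hba-a2, was also the highest here, and every AP library lay above every VC library. Means were 2921 ± 910.1 in VC and 7299 ± 3700.5 in AP (SD, n = 4), a 2.50-fold difference, where the globin sum differed 1.48-fold. Without AP.2, 3 genes were called (Flt1, Pecam1 and Plvap) and the median was 1.08, and without VC.1, 2 were called (Pecam1 and Plvap). The call of Cdh5 was also lost without VC.2, without AP.3 and without AP.4, and with the transcript length trend removed. Other settings called more of the 12, with 8 in DESeq2, 7 in limma without VC.4, 6 without VC.3 and 6 with a pseudocount of 5, and 5 with voom. With no intensity trend, limma called 0 of the 12, with 9 at an unadjusted p under 0.05. That count too has no share of all genes beside it. The part of vessel content in the Hbb-bs difference was not tested.

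Resident cells were read in the same way. Of 6 dermal fibroblast genes, all tested, limma, edgeR, DESeq2 and voom called 0, with 1 at an unadjusted p under 0.05 in limma and a median of 0.49, which ranged from 0.16 (transcript length trend removed) to 0.75 (without VC.4). Col1a1 (log2 fold change 0.63), Col3a1 (0.41) and Col1a2 (0.57) were the most abundant. The list summed to 113491, 76169, 78165 and 214350.2 in VC and 248493, 185673, 133545 and 94665 in AP. Of 5 keratinocyte genes, all tested, 2 were called higher, against the same 6.33%, and 0 lower. These were Krt1 (log2 fold change 3.46, adjusted p 0.00843 in limma) and Krt10 (3.85, adjusted p 0.00367), keratins of suprabasal epidermis, a layer that the dissection was to remove. The keratinocyte list summed to 28261, 85539, 52040.2 and 26138 normalized counts in VC and 72304, 80275, 162727 and 256055 in AP, with Krt14 the most abundant, and its part in the red cell gene results was not tested.

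**Figure D3:**
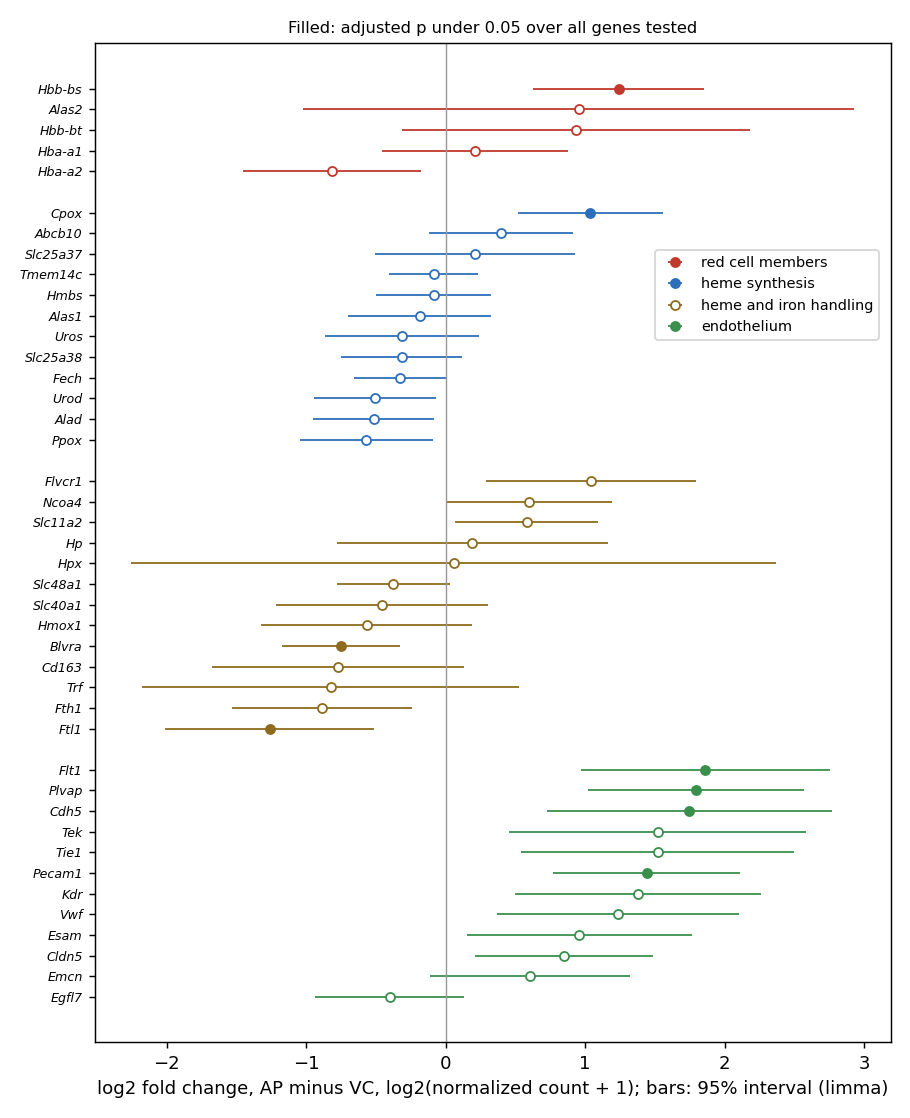
Log2 fold change (AP minus VC, on log2(normalized count + 1)) with 95% intervals from limma for tested red cell members, heme synthesis genes, heme and iron handling genes and endothelial genes. Filled points have an adjusted p under 0.05 over 15964 genes. Hbb-bs (1.24) and Hba-a2 (−0.81) lie on opposite sides of 0, most heme synthesis genes lie below 0, and 11 of 12 endothelial genes lie above it.

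Finally, genes whose profile was most like that of the globin sum were sought among 11254 genes with a mean of at least 50 normalized counts, by the SD of the log2 difference between gene and globin sum. Over the 8 libraries the closest were Stard9 (SD 0.179), Amigo2 (0.188), Plcb4 (0.191), Creb3l2 (0.203) and Lfng (0.203), where the median gene had an SD of 0.665 and the globin sum itself varied with an SD of 0.53 on the log2 scale. After subtraction of the group means, the closest were Myrip (SD 0.164), Grk5 (0.167), Stard9 (0.187), Syne1 (0.195) and Amigo2 (0.196), with a median of 0.582. None of the genes on the lists above was among the first 5 by either measure. Likeness here is a description over 8 libraries with no test.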

How the data were processed

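Per the study's methods, the authors aligned reads to mm10 with STAR, counted them with featureCounts (the submitters' processing notes name HTSeq) and compared groups with DESeq2. The deposited signal is the count of a gene over its library's size factor. All 150160 values were whole multiples of 1 step per library (largest deviation 0.000215 reads), so reads were recovered. The authors' own comparison columns (fold changes, p-values, a Wald statistic score) were not used. limma 3.58.1 (R 4.3.3) was fitted to log2(normalized count + 1) with an intensity trend and Benjamini-Hochberg adjustment over 15964 genes, and called 1650. On recovered reads, edgeR 4.0.16 called 1715 and DESeq2 1.42.0 called 3039. Ratios were tested in Python 3.11.15 (SciPy 1.17.1). The Alas2 ratio needed a pseudocount of 1, the Slc4a1 ratio was tested only in an alternative with that pseudocount, and adjustment kept 5 ratios. Chi-square per degree of freedom between replicates was 15.8 to 78.9, so none was a copy of another. Lengths and coordinates are from GENCODE M21. The members and lists were chosen with earlier results of these data known. Named genes were the members, list genes called or else the 2 to 4 most abundant, and the 5 closest by each likeness measure. The fit was tested on simulated data. Alternatives were other pseudocounts, filters, scalings, tools and left-out libraries, and, chosen after seeing the data, removal of trends on transcript length and GC content.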

Additional observations from a re-analysis of the deposited data

Results flagged for a closer look

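In 26 groups of 4 libraries (each gene, ratio and sum in VC and in AP), the gap between the most extreme library and its neighbour was compared with the range of the group. Chance alone marks about 1 in 20 such groups, and 4 were marked. For Hbb-bs, VC.3 stood apart at 330.4 normalized counts from 168 to 186 in the other VC libraries, which brought it near the lowest AP library. For Hbb-bt, VC.1 stood at 63.7 against 11.3 to 17.8 in the rest of its group, and AP.2 at 97.1 against 27.9 to 35.8. For the endothelial list, AP.2 summed to 12815 normalized counts against 4942 to 5941 in the other AP libraries. AP.2 thus stood apart for Hbb-bt and for the endothelial sum.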

How the results depend on the processing

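No paired analysis was possible because the labels give the groups different numbers. limma called 1650 genes (1011 higher, 639 lower), against 8727 (8657 higher, 70 lower) with scaling by total counts, 3039 with DESeq2, 592 with no intensity trend and 1096 with the transcript length trend removed, and 307 (without AP.3) to 1873 (without AP.1) with 1 library left out. It was also 839 without VC.1, 540 without AP.2 and 404 without AP.4. The split of higher and lower calls moved to 856 and 874 with the GC trend removed, 858 and 934 with voom and 580 and 516 with the length trend removed. Scaling by total counts moved the median of all genes from 0.06 to 0.90 and gave Hba-a1 1.08 (adjusted p 0.0182 in limma) and Hbb-bt 1.77 (adjusted p 0.0178), and both then passed. Hba-a2 passed with DESeq2 (−0.83). Hbb-bs, at 1.24, did not pass in limma with no intensity trend and ranged from 1.02 (without AP.2) to 1.47 (without VC.3) with 1 library left out. It kept its call in 17 of 21 alternatives. The cause of these changes was not tested. Of the other gene results, Hba-a1 kept its side of the threshold in 20 of 21 alternatives, Hba-a2 in 20, Hbb-bt in 20 and Alas2 in 21. The α to β ratio ranged from −1.33 to −1.13 and the Hba-a1 to Hba-a2 ratio from 0.89 to 1.14 on the log2 scale over 10 alternatives each, while the Hbb-bs to Hbb-bt ratio ranged from −0.44 to 0.59 and the Alas2 ratio from −0.57 to 0.97, with a change of sign. The log2 difference of the globin sum was 0.53 in normalized counts, 1.40 as a percent of all reads, 0.57 with mitochondrially encoded reads left out, and 0.31 (without AP.2) to 0.70 (without AP.3) with 1 library left out. With no filter, Slc4a1 had a fitted log2 fold change of 1.12 (adjusted p 0.171 in limma), a value that depends on the pseudocount, and with 1 normalized count added to both terms its ratio to globin differed by 0.59 (adjusted exact permutation p 0.619). Depth limits Alas2 and Slc4a1 most, with at most 10 and 0 reads in a VC library.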
